A study of Drosophila melanogaster with 6 samples.

Results

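The genes described here are the Drosophila melanogaster genes for which the deposited table listed no splice junction, annotated or unannotated. They were chosen as every gene identifier without a junction entry, leaving out the mitochondrial genome, and number 3273 of 14737 genes (22.2%). The rule used no expression level, but unannotated junctions come from reads, and earlier results of these data were known when members were chosen. The mutant strain carried the CC01391 allele of caper, which encodes an RNA-binding protein akin to the vertebrate splicing factor RBM39. It was compared with OreR (Oregon-R), a wild-type laboratory strain, in 3 biological replicates of whole-embryo lysate each, sequenced in 1 lane. Every mutant library came from the CC01391 strain and every other library from OreR, so the allele and the strain background cannot be told apart in any value below. Embryo age is not stated in the sources used here. Counts of caper were not analysed here, and the labels thus went without a check by the mutated gene.

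Most animal genes are transcribed with introns that the spliceosome removes, and the proteins left on the joined exons help recruit the mRNA export machinery. Genes without introns skip that step; in flies they include the clustered histone genes, the Enhancer of split and Bearded genes of the Notch pathway, many glutathione S-transferases and digestive proteases, the heat shock genes, and most small structural RNAs. Where a splicing factor is mutated, they are the genes whose own transcripts need no splicing. The comparison therefore asks how the levels of such transcripts differed between the genotypes.

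Protein-coding genes made up 1983 of the 3273 members, beside 380 other noncoding RNAs, 270 tRNAs, 234 snoRNAs, 98 pseudogenes, 98 rRNA genes and 31 snRNAs, by a later annotation (Ensembl 115, BDGP6) that named 3094 of them. The other 179 identifiers had no name there. Of those 3094, the later annotation gave 3032 a single exon and 62 more than 1. The 1892 protein-coding members outside the 91 replication-dependent histone genes were short: their median exonic length was 1034 bases, against 1892.5 bases in protein-coding genes with junctions, and their median coding length was 762 bases, against 1299 bases. These members without the histone genes formed 13.7% to 16.9% of the protein-coding genes on chromosome arms 2L, 2R, 3L and 3R and on the X, and 1 of 77 on chromosome 4. The totals of protein-coding genes kept the histone genes, so these shares leave histone members out of the count alone. Another gene overlapped 1469 of the named members (47.5%), against 44.8% of genes with junctions, and 1102 lay inside another gene. The sources used here do not say how the counting treated strand, so reads of a member and of an overlapping gene could not always be separated.

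The gene counts of each library summed to between 36979138 and 42956396 in the mutant and between 34815930 and 40241577 in OreR. The 28 genes of the mitochondrial genome, which are not members and are included in these sums, had 1126, 1022 and 1607 counts in the mutant, against 185038, 192071 and 204396 counts in OreR. All 7 embryo marker genes were detected in every library, and the levels of eve, ftz, Kr and elav overlapped between the genotypes. The maternal RNA bcd was higher in every mutant library, at 147, 183 and 199.9 CPM (counts scaled to library size) in the mutant, against 64.99, 41.97 and 71.5 CPM in OreR, while osk, another maternal RNA, overlapped at 120.5, 164 and 141 CPM in the mutant, against 190.4, 99.99 and 221 CPM in OreR. Chorion genes, which mark ovarian follicle cells, summed to 0.377 to 0.431 CPM in the mutant and 0.489 to 0.997 CPM in OreR over 9 genes. The sum of 11 testis markers was 195 to 252 CPM in the mutant and 52.6 to 85.7 CPM in OreR. Nearly all of it was twe, a Cdc25 phosphatase gene of meiosis that eggs also contain, at 195, 246 and 251 CPM in the mutant, against 82.2, 52.2 and 85.3 CPM in OreR; dj and the 4 Mst84D genes were at 0. In whole embryos a lower level cannot be told apart from fewer cells of the type that expresses the gene.

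Junction-free genes held a small and even share of the RNA counted. They took 4.55%, 4.38% and 4.26% of the gene counts outside the mitochondrial genome in caper mutant embryos, against 4.44%, 4.52% and 4.54% in OreR embryos. With the mitochondrial genome in the total, the shares were 4.55%, 4.38% and 4.26% in the mutant, against 4.42%, 4.50% and 4.51% in OreR. The values that follow leave it out. The genotypes overlapped, with means of 4.40 ± 0.15% in the mutant and 4.50 ± 0.05% in OreR (SD, n = 3 each). The 10 genes with the most counts carried 25.4%, 23.9% and 22.5% of the junction-free counts in the mutant, against 26.2%, 32.0% and 26.97% in OreR. At the other end, 956 members (29.2%) had no count in any library, against 4.21% of genes with junctions. The silent members included 205 of the 270 tRNAs and 97 of the 98 rRNA genes. Of the protein-coding members, 359 were silent.

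Only 1106 members (33.8%) had enough counts to be tested, against 79.9% of genes with junctions, so the counts below are over those that passed that filter and not over all members. Of these, 425 (38.4%) changed in the mutant, 275 higher and 150 lower (quasi-likelihood test of edgeR, p adjusted by Benjamini-Hochberg over all tested genes, below 0.05). Over all 10251 genes tested, 46.9% changed, 26.4% higher and 20.6% lower. Among the junction-free genes the shares were 24.9% higher and 13.6% lower. A change of at least 2-fold was called upward in 105 and downward in 72 of the 1106 tested members. Over all 10251 tested genes, 663 (6.47%) rose and 646 (6.3%) fell by that much. At least 8-fold changes were called in 22 of the 1106 members, against 118 of the 10251 genes (1.15%). The genotypes did not overlap in CPM for 579 members (52.4%), against 60.4% of all tested genes. The tested members had a median log2 fold change of -0.01, against -0.07 over all genes tested, and the median size of the change was 0.42 against 0.41. With DESeq2, 460 of 1522 members (30.2%) and 43.6% of all genes with an adjusted p changed.

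How many members rose for each that fell varied with the scaling and with the libraries used. TMM scaling factors were 0.905 to 0.974 in the mutant and 1.06 to 1.07 in OreR. Upper quartile scaling shifted the median of all genes to -0.23. Under it, 245 members were higher and 260 lower, so that 48.5% of the calls were upward, against 64.7% with TMM. Leaving out 1 library gave 224 to 284 higher and 82 to 127 lower, and each of these runs had more rises for each fall than the run with all libraries. The fewest falls came without mutant replicate 2 (224 higher and 82 lower) and without mutant replicate 3 (235 higher and 98 lower), and without OreR replicate 3 there were 284 higher and 118 lower.

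The share of genes that fell grew with the number of junctions. Among genes with 1 junction, 16.1% were lower, and among genes with 2 to 4 junctions 17.2%, against the 13.6% of junction-free genes. The share was 26.8% with 5 to 19 junctions and 39.6% with 20 or more. With upper quartile scaling 260 of 1106, 470 of 1657, 1147 of 3695, 1526 of 3499 and 158 of 288 genes were lower, in the same order of classes. The share of genes that rose stayed between 21.5% and 28.1% over the 5 classes. The classes differ in more than splicing: the median level was 3.39 log2 CPM in the junction-free genes, 4.18 with 1 junction, 4.96 with 2 to 4, 5.96 with 5 to 19 and 7.20 with 20 or more, and median exonic length went with it.

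**Figure D1:**
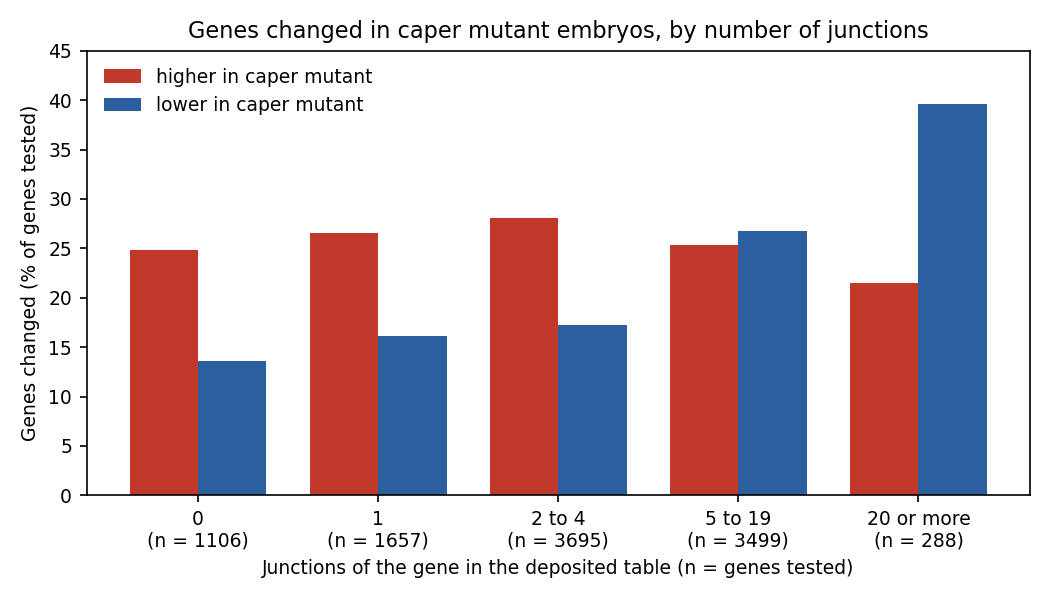
Genes higher (red) and lower (blue) in caper mutant embryos, as a percent of the genes tested (vertical axis), in classes by the number of junctions (horizontal axis, with the number of genes tested). The blue bars run from 13.6% in junction-free genes to 39.6% in genes with 20 or more junctions, while the red bars lie between 21.5% and 28.1%. With upper quartile scaling more members were lower (260) than higher (245).

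Within classes of like level, and with TMM scaling, the junction-free genes fell less often than genes with junctions at all 4 levels. At 5 log2 CPM or more, 46.3% of 309 junction-free genes rose and 10.7% fell, against 38.2% and 18.5% of 4890 genes with junctions. Between 3 and 5 log2 CPM the shares were 24.9% and 12.5% in junction-free genes, against 18.1% and 21.4% in the others. Between 1 and 3 log2 CPM, 16.9% of the junction-free genes were lower, against 32.1%, and below 1 log2 CPM 15.4%, against 23.5%. Length gave a like picture among long genes: of those with at least 2400 exonic bases, 15.1% of 106 junction-free genes and 26.3% of 3873 genes with junctions fell. Below 600 bases the order was the other way round, with 19.8% of 101 junction-free genes and 14.2% of 247 others lower. These shares are descriptions and were not tested, since genes are not replicates of a condition.

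Members that lie apart from any other gene changed about as often as the rest. Of the 544 tested members that overlap no other gene, 208 changed (38.2%), 127 higher and 81 lower. Among the 267 tested members inside another gene, 94 changed, 48 higher and 46 lower. The changes of members inside a gene on the same strand were nearly unrelated to those of the gene around them: over 126 such pairs Pearson's r was -0.05 and Spearman's rho 0.15, and over 85 pairs on opposite strands r was 0.10 and rho 0.04. These correlations are across genes that share libraries and, in part, reads. Of the 37 same-strand members that changed, the surrounding gene changed in the same direction for 9 and in the opposite direction for 11.

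**Figure D2:**
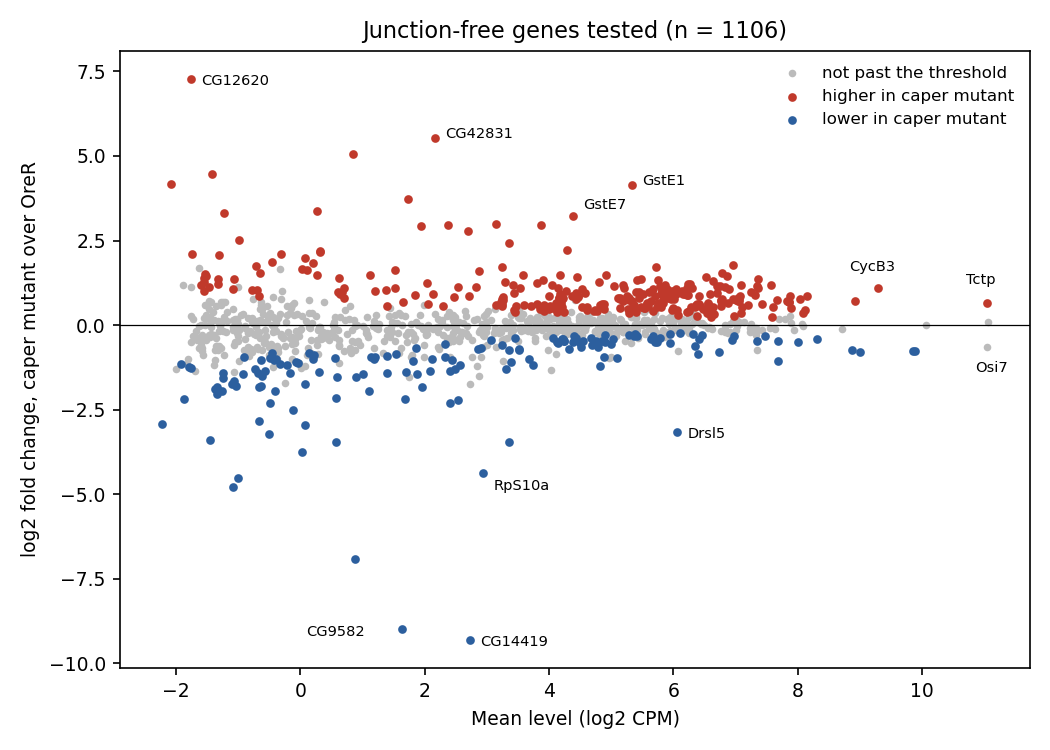
Fitted log2 fold change of each tested junction-free gene, caper mutant over OreR (vertical axis), against its mean level in log2 CPM (horizontal axis), with genes past the threshold in red (higher) or blue (lower). The largest fitted values, of CG14419, CG9582 and CG12620, belong to genes with 0 to 2 counts over 1 genotype and depend on the prior count. GstE1 stands at 4.14 and Drsl5 at -3.15.

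A few members were present in 1 genotype and nearly absent in the other. CG12620 (FBgn0032626) had 21, 19 and 17 counts in the mutant libraries and 0 in each OreR library, at least 19.6-fold higher in the mutant (floor of 3 counts over the OreR group). It was singled out after its values were seen. In the other direction, CG14419 (FBgn0029639) had 0, 0 and 2 counts in the mutant, against 416, 730 and 424 counts in OreR. Its OreR level was 760 times the mutant level, with a 95% exact counting interval from 210.0 to 6280. CG9582 (FBgn0032090) had 1, 0 and 0 counts in the mutant and 228, 263 and 232 counts in OreR, a ratio of 700 (125 to 27700). All 3 genes separated the genotypes without overlap, which follows from choosing genes near 0 in 1 genotype. CG14419 lies inside another gene and CG9582 overlaps one.

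4 more members, also chosen after their values were seen, had 1 to 3 counts over 1 genotype. CG31832 had 3 counts over the mutant and 421 over OreR (OreR level 136 times the mutant level, interval 46.2 to 662), and CG16957 had 3 and 96 (31.0 times, 10.3 to 153). CR43483 had 72 counts over the mutant and 3 over OreR, a ratio of 24.8 (8.15 to 123). A copy of the U2 spliceosomal RNA gene, snRNA:U2:34ABa, had 41 counts over the mutant and 2 over OreR, a ratio of 21.2 (5.5 to 181). U2 genes are near-identical copies, so the split of reads between them is uncertain. All intervals and floors cover counting error only.

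Among called members with a mean of at least 1 log2 CPM and no overlap between the genotypes, 3 of the 10 largest increases were glutathione S-transferase genes. GstE1 (FBgn0034335) had 61.03, 86.7 and 81.2 CPM in caper mutant embryos, against 4.06, 5.08 and 3.85 CPM in OreR embryos (log2 fold change 4.14 ± 0.18 SE, edgeR adjusted p = 2e-05). GstE7 (FBgn0063493) had 31.6, 40.7 and 40.4 CPM in caper mutant embryos, against 4.37, 3.18 and 4.45 CPM in OreR embryos (log2 fold change 3.23 ± 0.18 SE, edgeR adjusted p = 7.2e-05). GstD5 (FBgn0010041) had 26.2, 24.5 and 26.9 CPM in caper mutant embryos, against 2.78, 3.78 and 3.34 CPM in OreR embryos (log2 fold change 2.97 ± 0.15 SE, edgeR adjusted p = 3.6e-05). In each of them the lowest mutant value lay several times above the highest OreR value, though some separation was required by the choice.

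Most other large increases were in genes without a given name. CG42831 (FBgn0262020) was at 8.26, 8.002 and 9.75 CPM in caper mutant embryos, against 0.206, 0.255 and 0.0814 CPM in OreR embryos (log2 fold change 5.54 ± 0.32 SE, edgeR adjusted p = 7.7e-05). For CG32073 the values were 6.84, 6.55 and 5.02 CPM in caper mutant embryos, against 0.283, 0.348 and 0.760 CPM in OreR embryos (log2 fold change 3.73 ± 0.36 SE, edgeR adjusted p = 0.00054). CG10013 had 18.4, 15.6 and 12.99 CPM in the mutant, against 2.24, 1.62 and 2.06 CPM in OreR (log2 fold change 2.99 ± 0.20 SE, edgeR adjusted p = 0.00014). These 3 genes were low in all OreR libraries and even among the mutant ones. The rest of this group was CG17470 at 6.75 ± 0.546 CPM in the mutant and 0.878 ± 0.103 CPM in OreR (SD, n = 3 each), CG15818 at 17.2 ± 2.57 CPM in the mutant and 3.16 ± 0.421 CPM in OreR (SD, n = 3 each) and the noncoding RNA gene lncRNA:CR40469 at 11.3 ± 1.07 CPM in the mutant and 1.62 ± 0.202 CPM in OreR (SD, n = 3 each); their log2 fold changes were 2.94 ± 0.18, 2.44 ± 0.18 and 2.79 ± 0.17 (SE; edgeR adjusted p = 0.0001, 0.00018 and 9.1e-05). The tenth was Hsp70Ba, described with the heat shock genes.

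The largest decreases after CG14419 and CG9582 began with RpS10a (FBgn0027494), a gene for small-subunit ribosomal protein S10 that lies inside another gene. It had 0.503, 0.667 and 0.926 CPM in caper mutant embryos, against 15.7, 10.6 and 17.3 CPM in OreR embryos (log2 fold change -4.38 ± 0.30 SE, edgeR adjusted p = 0.00014). Drsl5 (FBgn0035434), a gene for a peptide of the drosomycin family of antifungal peptides, had 13.9, 12.6 and 14.04 CPM in caper mutant embryos, against 102, 131 and 128 CPM in OreR embryos (log2 fold change -3.15 ± 0.12 SE, edgeR adjusted p = 1.3e-05). The annotated pseudogene CR10102 was at 1.89, 1.65 and 1.49 CPM in the mutant, against 19.6, 17.02 and 19.3 CPM in OreR (log2 fold change -3.47 ± 0.16 SE, edgeR adjusted p = 2e-05). The ranking took only genes without overlap between the genotypes, so the separation of these 3 was part of the choice.

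Smaller decreases followed. Fst (Frost), a cold-inducible gene, averaged 2.04 ± 0.792 CPM in the mutant and 9.50 ± 1.01 CPM in OreR (SD, n = 3 each) (log2 fold change -2.22 ± 0.28 SE, edgeR adjusted p = 0.00088). Cyp6a13, a cytochrome P450 gene, averaged 1.13 ± 0.217 CPM in the mutant and 5.16 ± 0.721 CPM in OreR (SD, n = 3 each) (log2 fold change -2.19 ± 0.22 SE, edgeR adjusted p = 0.00058). CG17633, lncRNA:CR43641 and CG9394 had log2 fold changes of -1.96 ± 0.39, -1.83 ± 0.23 and -1.44 ± 0.29 (SE; edgeR adjusted p = 0.0054, 0.00091 and 0.0054). Of these 5 genes, Fst, CG17633 and CG9394 lie inside another gene. None of the 20 genes lost its call under any alternative or without any library.

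The most abundant members were led by genes of translation and of the cuticle. Per kilobase of exon RpLP2 led in both genotypes, at 3676 CPM in the mutant and 3434 CPM in OreR, followed by CG13159 at 1786 CPM in the mutant and 3042 CPM in OreR. The order of the next 2 differed, with Tctp at 1559 CPM in the mutant and 994 CPM in OreR and nur at 766 CPM in the mutant and 1307 CPM in OreR. RpLP2, a protein of the ribosomal stalk, had 2094, 2213 and 2353 CPM in the mutant, against 1983, 2104 and 2135 CPM in OreR (log2 fold change 0.10 ± 0.08 SE, edgeR adjusted p = 0.32), and the genotypes overlapped. CNBP, a nucleic-acid-binding zinc finger protein, had 1096, 1025 and 1095 CPM in the mutant, against 1078, 1010.5 and 1145 CPM in OreR (log2 fold change -0.01 ± 0.08 SE, edgeR adjusted p = 0.94), again overlapping. Tctp, the translationally controlled tumor protein, was higher, at 2330.1, 2637 and 2758 CPM in the mutant, against 1636, 1469 and 1819 CPM in OreR (log2 fold change 0.65 ± 0.11 SE, edgeR adjusted p = 0.0023).

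Both members of this group that act in cell division were higher in the mutant. CycB3, a B-type mitotic cyclin, had 756, 874 and 937 CPM in the mutant, against 461, 311 and 421 CPM in OreR (log2 fold change 1.11 ± 0.16 SE, edgeR adjusted p = 0.0012). The septin gene pnut, which is needed for cytokinesis, had 541, 606 and 649.5 CPM in the mutant, against 380.4, 339.9 and 387 CPM in OreR (log2 fold change 0.70 ± 0.10 SE, edgeR adjusted p = 0.0011). Neither gene overlapped between genotypes.

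The other 5 abundant members were lower on average in the mutant and varied together between libraries. Osi7, of the Osiris family expressed in cuticle-forming cells, had 2372, 1659.5 and 931 CPM in the mutant, against 1970.2, 3636 and 2160.5 CPM in OreR, with overlapping genotypes and no call (log2 fold change -0.65 ± 0.35 SE, edgeR adjusted p = 0.17). CG13159 had 899, 674 and 533 CPM in the mutant, against 1067, 1480.0 and 1039.8 CPM in OreR (log2 fold change -0.77 ± 0.21 SE, edgeR adjusted p = 0.022). ImpE2, an ecdysone-inducible gene, had 480.0, 358 and 289 CPM in the mutant, against 543, 794 and 629.7 CPM in OreR (log2 fold change -0.80 ± 0.21 SE, edgeR adjusted p = 0.016). In all 5 genes, including nur (859, 653 and 541 CPM in the mutant, against 1082, 1411 and 1007 CPM in OreR) and CG14756 (425, 319 and 314 CPM in the mutant, against 465, 718 and 583 CPM in OreR), mutant replicate 3 was the lowest library and OreR replicate 2 the highest. For nur and CG14756 the edgeR adjusted p was 0.014 and 0.013. Without mutant replicate 2 none of the 4 calls held (edgeR adjusted p = 0.076 for CG13159, 0.058 for nur, 0.063 for ImpE2 and 0.058 for CG14756), and that of CG13159 also ended without OreR replicate 2 (0.064). CG14756 lies inside another gene. The muscle gene Mhc marks late embryos and is no member. It was at 1169, 1065 and 664 CPM in the mutant and 2140.1, 2390.0 and 1524 CPM in OreR. The markers eve, ftz, Kr and elav overlapped between the genotypes, with elav at 302, 311 and 354 CPM in the mutant, against 333, 426 and 398 CPM in OreR. The part of embryo stage in the 5 abundant genes was not tested.

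**Figure D3:**
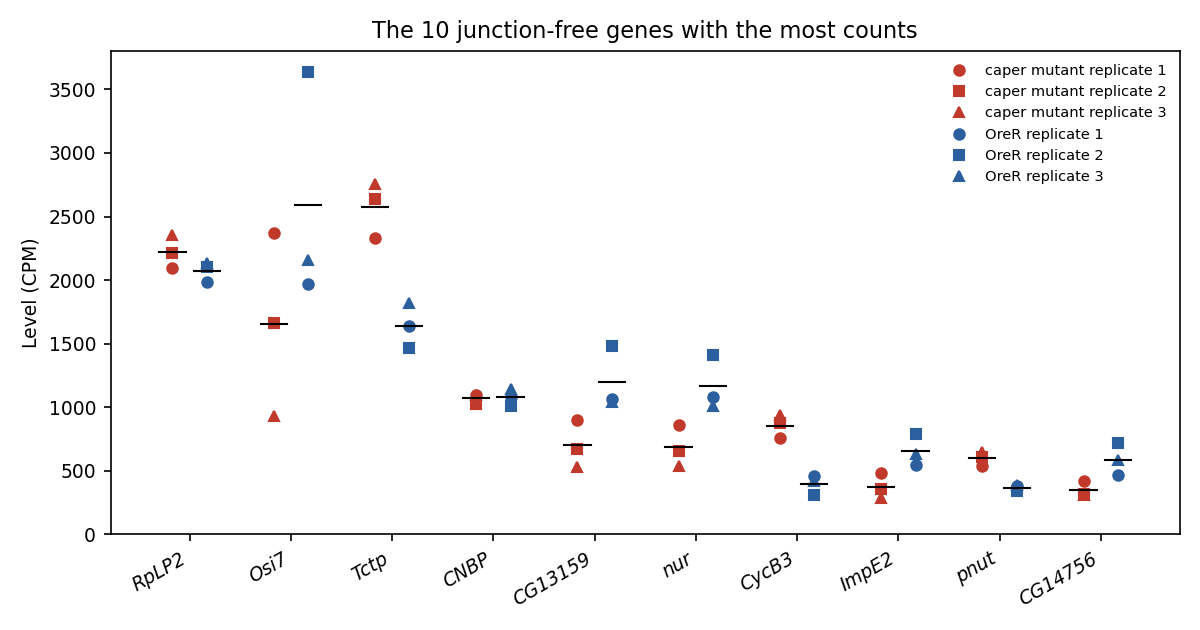
CPM of the 10 junction-free genes with the largest mean level (vertical axis, linear from 0), for each caper mutant library (red) and OreR library (blue), with a mark for each replicate number and a bar at the mean of 3. Tctp, CycB3 and pnut lie higher in all mutant libraries, RpLP2 and CNBP overlap, and Osi7 spreads from 931 CPM in mutant replicate 3 to 3636 CPM in OreR replicate 2.

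Glutathione S-transferases join glutathione to reactive and foreign compounds, and the GstD and GstE genes of the fly sit in clusters of mostly intronless genes. Of 17 junction-free members 15 were tested, 8 were higher and 3 lower. Over all tested genes 46.9% changed, 26.4% higher and 20.6% lower. The median of the family was 1.04 on the log2 scale. It was 0.89 under upper quartile scaling, 0.51 with DESeq2, 0.53 without a filter on low counts and 0.62 without mutant replicate 1. In each of these runs 8 were higher. Beyond GstE1, GstE7 and GstD5, GstE6 had 83.3, 81.03 and 62.8 CPM in the mutant, against 32.6, 36.3 and 34.03 CPM in OreR (log2 fold change 1.14 ± 0.12 SE, edgeR adjusted p = 0.00071). GstE3 had 43.8, 37.6 and 37.1 CPM in the mutant, against 16.3, 16.9 and 15.7 CPM in OreR (log2 fold change 1.28 ± 0.11 SE, edgeR adjusted p = 0.00035). In both genes every mutant library lay above every OreR library. GstE8, GstE9 and GstD2 were higher too, with log2 fold changes of 1.19 ± 0.15, 1.09 ± 0.21 and 1.04 ± 0.27; the call of GstD2 ended without OreR replicate 1 (edgeR adjusted p = 0.052).

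Other genes of the same family were lower. GstE10 had 5.002, 3.31 and 2.34 CPM in the mutant, against 8.85, 7.81 and 7.73 CPM in OreR (log2 fold change -1.19 ± 0.27 SE, edgeR adjusted p = 0.0097), and GstD3 had 7.52, 8.002 and 7.59 CPM in the mutant, against 11.3, 13.8 and 13.3 CPM in OreR (log2 fold change -0.73 ± 0.13 SE, edgeR adjusted p = 0.0034). GstE4, at 0.311, 0.406 and 0.206 CPM in the mutant, against 1.08, 0.928 and 0.461 CPM in OreR, was called lower (edgeR adjusted p = 0.024) but not without mutant replicate 1 or 3 or OreR replicate 1 or 2 (0.067 to 0.071). GstD4, GstD7, GstE2 and GstE5 did not pass the test, at log2 fold changes of 0.49 ± 0.25, -0.16 ± 0.26, -0.36 ± 0.28 and -0.06 ± 0.15. Members of this family resemble each other in sequence, and reads of close copies may be shared. Of the family genes with junctions only GstE11 is described here, and it was added after its values were seen. GstE11, which has 2 junctions and is no member, had 40.998, 32.5 and 32.5 CPM in the mutant, against 46.2, 50.3 and 50.5 CPM in OreR (log2 fold change -0.47 ± 0.12 SE, edgeR adjusted p = 0.014; 0.069 without mutant replicate 2 and 0.054 without OreR replicate 3).

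Genes for digestive enzymes moved the other way. The Jonah and trypsin-type serine proteases and the lysozymes are secreted in the gut. Of 32 members 15 were tested and none was higher (none at an unadjusted p below 0.05 or with DESeq2). Of those tested, 10 were lower (66.7%, against 20.6% of all tested genes), with a median of -1.72 on the log2 scale. Leaving out 1 library at a time gave 7 to 9 lower, fewest without OreR replicate 2. LysD had 0.239, 0.145 and 0.283 CPM in the mutant, against 1.57, 2.02 and 1.71 CPM in OreR (log2 fold change -2.96 ± 0.28 SE, edgeR adjusted p = 0.00054), and zetaTry had 0.263, 0.377 and 0.129 CPM in the mutant, against 1.52, 1.32 and 1.57 CPM in OreR (log2 fold change -2.52 ± 0.34 SE, edgeR adjusted p = 0.0011). LysC, which the later annotation calls a pseudogene and which is among the 10 lower, had 0.215, 0.0580 and 0.103 CPM in the mutant, against 1.88, 1.97 and 1.55 CPM in OreR (log2 fold change -3.77 ± 0.38 SE, edgeR adjusted p = 0.00059). These values are low in both genotypes, mostly under 2 CPM, with the mutant libraries all below the OreR libraries. LysC and LysD lie inside another gene and are close copies, so their split is uncertain.

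The other proteases called lower were Jon44E, Jon99Fi, Jon99Fii, Ser6, etaTry and kappaTry, with LysX among the lysozymes. kappaTry had 1.96, 1.74 and 0.489 CPM in the mutant, against 4.47, 3.92 and 2.85 CPM in OreR (log2 fold change -1.42 ± 0.45 SE, edgeR adjusted p = 0.036), and Jon99Fii had 0.0239, 0.0290 and 0.0514 CPM in the mutant, against 0.309, 0.672 and 1.63 CPM in OreR (log2 fold change -4.51 ± 0.85 SE, edgeR adjusted p = 0.0045). In kappaTry and Jon99Fii all mutant values were below all OreR values. The trypsin gene lambdaTry did not pass the test at 7.35, 7.22 and 3.32 CPM in the mutant, against 11.2, 10.7 and 6.13 CPM in OreR (log2 fold change -0.65 ± 0.35 SE, edgeR adjusted p = 0.16), and its genotypes overlapped. LysS was at 0.981, 1.10 and 0.926 CPM in the mutant, against 0.540, 0.927 and 0.651 CPM in OreR (log2 fold change 0.50 ± 0.26 SE, edgeR adjusted p = 0.15), with genotypes that just overlapped.

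**Figure D4:**
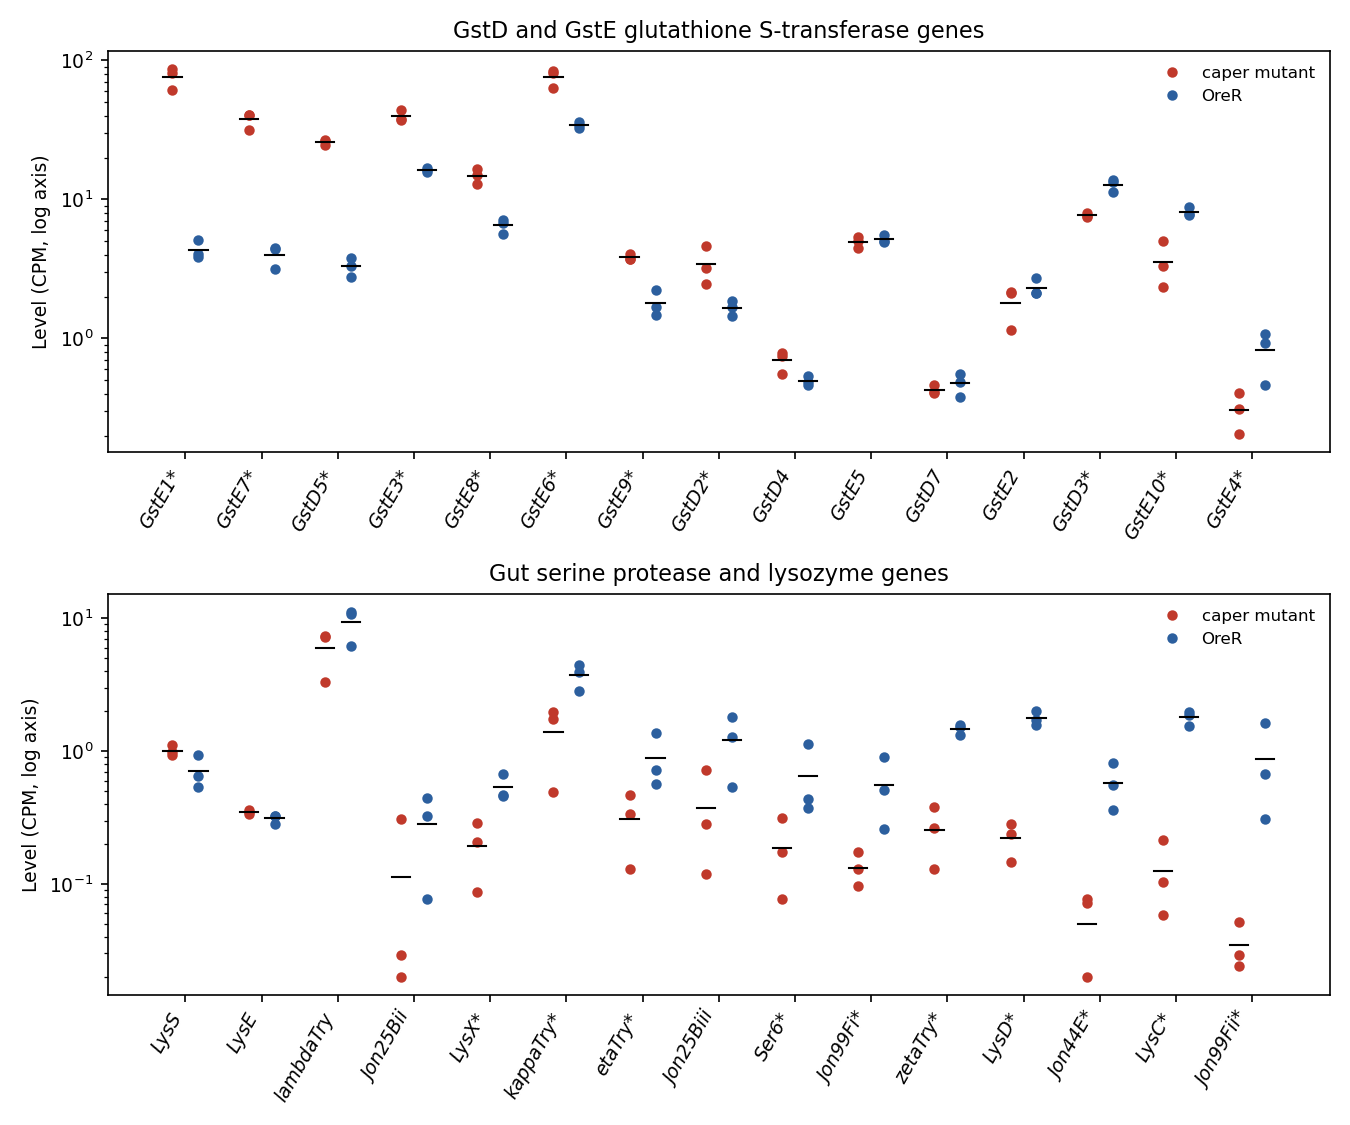
CPM (vertical axes, log scale) of the tested junction-free GstD and GstE genes (top) and gut serine protease and lysozyme genes (bottom), for each caper mutant library (red) and OreR library (blue), with bars at the mean of 3 libraries and genes ordered by fold change. An asterisk marks an edgeR adjusted p below 0.05, and libraries with 0 counts are drawn at 0.02 CPM. The top panel runs from GstE1, higher by 4.14 on the log2 scale, to GstE4, lower, and the bottom panel has no gene called higher.

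Neprilysin-like genes are related to those of the neprilysin peptidases and have many intronless copies in flies. Of 16 members 11 were tested, 1 was higher and 6 were lower, with a median of -0.50, beside the 20.6% of all tested genes that were lower. Nepl18 had 18.4, 18.5 and 16.3 CPM in the mutant, against 26.8, 28.7 and 28.7 CPM in OreR (log2 fold change -0.66 ± 0.10 SE, edgeR adjusted p = 0.0018), and Nepl20 had 3.28, 2.75 and 2.44 CPM in the mutant, against 5.37, 6.28 and 5.45 CPM in OreR (log2 fold change -1.01 ± 0.18 SE, edgeR adjusted p = 0.0031). Nepl4 was lower as well, at 0.191, 0.348 and 0.257 CPM in the mutant, against 0.772, 1.02 and 0.977 CPM in OreR (log2 fold change -1.80 ± 0.29 SE, edgeR adjusted p = 0.0022). Nepl10 was the exception, at 0.957, 1.01 and 0.669 CPM in the mutant, against 0.283, 0.301 and 0.326 CPM in OreR (log2 fold change 1.53 ± 0.27 SE, edgeR adjusted p = 0.0033), and none of these 4 overlapped between the genotypes. Nepl18, Nepl19, Nepl20 and Nepl21 lie inside 1 gene, CG33203, Nepl19 on its strand and the others on the opposite strand. CG33203 itself was lower (log2 fold change -0.74, edgeR adjusted p = 0.032), and whether its reads entered the counts of these 4 genes was not tested. Nepl15, Nepl19 and Nepl21 had log2 fold changes of -1.18 ± 0.31, -0.50 ± 0.12 and -0.69 ± 0.18. Their calls each ended without at least 1 library: Nepl15 without OreR replicate 1 (edgeR adjusted p = 0.052), Nepl19 without mutant replicate 2 (0.063), and Nepl21 without mutant replicate 1 (0.066) or 2 (0.065) or OreR replicate 1 (0.051).

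Few Notch pathway genes without introns were called, while 46.9% of all tested genes changed. The E(spl) bHLH proteins are the repressors that Notch activates, and the Bearded family proteins restrain Neuralized, a ligase that Notch ligands need. All 7 E(spl) bHLH genes were tested with no call in edgeR or DESeq2, none at an unadjusted edgeR p below 0.05, and a median of 0.01 (-0.15 with upper quartile scaling), and 1 (E(spl)mbeta-HLH, adjusted p = 0.046) was called lower with upper quartile scaling. E(spl)mgamma-HLH had 71.4, 65.5 and 76.04 CPM in the mutant, against 73.5, 65.2 and 70.3 CPM in OreR (log2 fold change 0.03 ± 0.09 SE, edgeR adjusted p = 0.82). E(spl)m3-HLH had 55.5, 53.3 and 62.4 CPM in the mutant, against 53.4, 78.03 and 65.01 CPM in OreR (log2 fold change -0.20 ± 0.14 SE, edgeR adjusted p = 0.28). For both, the genotypes overlapped.

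Of the 8 Bearded family genes, Tom was the only one called, at 222, 193 and 228 CPM in the mutant, against 307, 268 and 327 CPM in OreR (log2 fold change -0.49 ± 0.10 SE, edgeR adjusted p = 0.0074). With upper quartile scaling 4 were called lower. E(spl)m4-BFM was at 75.6, 66.4 and 77.5 CPM in the mutant, against 68.9, 49.4 and 57.1 CPM in OreR (log2 fold change 0.32 ± 0.13 SE, edgeR adjusted p = 0.08), with overlapping libraries, and E(spl)m6-BFM was at 20.3, 16.8 and 19.6 CPM in the mutant, against 21.5, 28.2 and 24.1 CPM in OreR (log2 fold change -0.38 ± 0.14 SE, edgeR adjusted p = 0.055). Without OreR replicate 1, E(spl)m4-BFM was called higher (edgeR adjusted p = 0.027) and E(spl)m6-BFM lower (0.045); E(spl)m6-BFM was also called lower with DESeq2 (0.048). The proneural genes of the achaete-scute complex, which make cells neural, were not called with edgeR (1 of 4 had an unadjusted p below 0.05). The smallest p of these 4 genes was that of ac, at 6.96, 7.10 and 7.25 CPM in the mutant, against 5.99, 4.59 and 5.35 CPM in OreR (log2 fold change 0.42 ± 0.15 SE, edgeR adjusted p = 0.056), which was called with DESeq2 and with RLE scaling. The neuroblast gene ase had 32.3, 26.9 and 32.8 CPM in the mutant, against 28.9, 32.9 and 31.1 CPM in OreR (log2 fold change -0.01 ± 0.11 SE, edgeR adjusted p = 0.93).

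Early zygotic genes, many of them short and intronless, gave 1 call, while 46.9% of all tested genes changed. All 17 members were tested, 1 was called higher and none lower (2 lower at an unadjusted p below 0.05, and 1 with DESeq2), at a median of -0.14, and with upper quartile scaling none was higher and 4 were lower, at a median of -0.30. Leaving out 1 library gave medians from -0.17 to -0.072. Without OreR replicate 2, Sry-alpha, term and scw were called lower (edgeR adjusted p = 0.034, 0.041 and 0.048), and without OreR replicate 1 halo was called higher (0.027). The called gene was sisA, an X-linked signal that turns on Sex-lethal in females, at 12.1, 10.03 and 11.4 CPM in the mutant, against 8.59, 6.31 and 7.87 CPM in OreR (log2 fold change 0.56 ± 0.16 SE, edgeR adjusted p = 0.025). Its libraries did not overlap, but the call ended with upper quartile scaling (edgeR adjusted p = 0.061) and without mutant replicate 1 (0.057) or 3 (0.062). The transcription factor gene SoxN had 114, 101 and 109 CPM in the mutant, against 126, 137 and 116 CPM in OreR (log2 fold change -0.23 ± 0.09 SE, edgeR adjusted p = 0.071), and fd96Cb, a forkhead gene, had 9.24, 6.87 and 8.57 CPM in the mutant, against 10.8, 11.6 and 10.6 CPM in OreR (log2 fold change -0.42 ± 0.15 SE, edgeR adjusted p = 0.053). Neither overlapped between genotypes. halo, a regulator of lipid droplet transport, overlapped at 25.3, 20.6 and 23.1 CPM in the mutant, against 22.3, 13.7 and 16.7 CPM in OreR (log2 fold change 0.39 ± 0.19 SE, edgeR adjusted p = 0.12).

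Heat shock genes split by copy and by library. Of 12 members, all tested, 2 were higher and 1 lower, so that 25.0% changed, against 46.9% of all tested genes. The median was -0.02, and the libraries moved it, with -0.40 without mutant replicate 3 and 0.23 without OreR replicate 2, and 0 to 2 called lower. Hsp70Ba had 4.38, 7.13 and 15.9 CPM in the mutant, against 0.360, 1.99 and 1.11 CPM in OreR (log2 fold change 2.97 ± 0.66 SE, edgeR adjusted p = 0.0088), while Hsp70Bbb, a near-identical copy, had 0.694, 1.33 and 3.24 CPM in the mutant, against 1.88, 14.01 and 10.2 CPM in OreR (log2 fold change -2.31 ± 0.78 SE, edgeR adjusted p = 0.043). Hsp70Bc was at 1.72, 2.17 and 5.07 CPM in the mutant, against 2.08, 16.8 and 11.4 CPM in OreR (log2 fold change -1.76 ± 0.72 SE, edgeR adjusted p = 0.078; 0.01 without OreR replicate 1). Mutant replicate 3 was the highest mutant library for all 3 copies, and OreR replicate 1 was the lowest OreR library for all 3. How reads were divided between these copies is uncertain. Hsp23, a small heat shock protein, had 63.9, 69.9 and 94.7 CPM in the mutant, against 19.4, 49.7 and 41.9 CPM in OreR (log2 fold change 1.04 ± 0.33 SE, edgeR adjusted p = 0.034); its call ended with upper quartile scaling (edgeR adjusted p = 0.056) and without mutant replicate 2 (0.071) or 3 (0.087) or OreR replicate 3 (0.053). That of Hsp70Bbb, whose genotypes overlapped, ended without mutant replicate 1 (0.12) or 2 (0.13) or OreR replicate 2 (0.13) or 3 (0.091).

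Of 9 replication and division genes, all tested, 4 rose and none fell (none at an unadjusted p below 0.05 or with DESeq2), a share of calls near the 46.9% of all tested genes. The median was 0.32, with 0.17 under upper quartile scaling, 0.073 without OreR replicate 2 and 0.54 without OreR replicate 3, and 4 were higher in each of these. Beside CycB3 and pnut, geminin, which blocks relicensing of replication origins, had 297, 299.6 and 316 CPM in the mutant, against 185, 138 and 179 CPM in OreR (log2 fold change 0.86 ± 0.12 SE, edgeR adjusted p = 0.0011). Mcm6, a subunit of the replicative helicase, had 260.3, 288 and 310.2 CPM in the mutant, against 193, 146 and 191 CPM in OreR (log2 fold change 0.70 ± 0.13 SE, edgeR adjusted p = 0.0037). All mutant values lay above all OreR values in these genes. Without OreR replicate 2, mus101 was called lower, just past the threshold. The maternal RNA bcd, given above, was higher in all mutant libraries too, while the maternal RNA osk overlapped between the genotypes. The part of embryo stage in these replication and division genes was not tested.

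Vesicle and autophagy genes counted 23 members, of which 11 were tested, 5 were higher and 1 was lower, with 3 and 3 under upper quartile scaling and 3 and 1 without mutant replicate 2. Over all tested genes 26.4% were higher and 20.6% lower. Vps11, of the tethering complexes of endosomes and lysosomes, had 197, 304 and 288 CPM in the mutant, against 122, 92.03 and 134 CPM in OreR (log2 fold change 1.18 ± 0.20 SE, edgeR adjusted p = 0.0025). Atg101, of the complex that starts autophagy, had 57.6, 65.1 and 71.3 CPM in the mutant, against 33.5, 31.2 and 34.2 CPM in OreR (log2 fold change 0.97 ± 0.10 SE, edgeR adjusted p = 0.0007), and its partner Atg13 had 92.6, 109 and 116 CPM in the mutant, against 87.8, 73.3 and 86.2 CPM in OreR (log2 fold change 0.36 ± 0.11 SE, edgeR adjusted p = 0.035). The retromer gene Vps29 was higher by 0.54 ± 0.10 and the proton pump gene Vha14-1 by 0.31 ± 0.07 on the log2 scale, while Vha36-1, another subunit of the pump, had 105, 115 and 93.7 CPM in the mutant, against 140.4, 146 and 137 CPM in OreR (log2 fold change -0.43 ± 0.09 SE, edgeR adjusted p = 0.0071). The calls of Atg13 and Vha14-1 ended with upper quartile scaling (edgeR adjusted p = 0.1 and 0.12) and without mutant replicate 2 (0.11 and 0.051). For Atg13 mutant replicate 3 (0.11) and OreR replicates 1 (0.051) and 2 (0.078) also decided the call.

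Genes of large complexes were mixed, while 46.9% of all tested genes changed. Among 4 tested proteasome genes of 7, Prosbeta3 was called, at 201, 231 and 238 CPM in the mutant, against 119, 76.1 and 109 CPM in OreR (log2 fold change 1.14 ± 0.16 SE, edgeR adjusted p = 0.0014), and Rpn12, Rpt1 and Rpn7 were at 0.19 ± 0.12, -0.08 ± 0.09 and -0.07 ± 0.09, with Rpt1 and Rpn7 called lower under upper quartile scaling. Of 6 Mediator genes, MED25 was called lower, at 27.3, 27.2 and 29.3 CPM in the mutant, against 38.99, 35.1 and 38.04 CPM in OreR (log2 fold change -0.42 ± 0.09 SE, edgeR adjusted p = 0.0088; 0.053 without mutant replicate 2). Ribosomal protein genes had 9 of 11 members tested, 2 higher and 2 lower, and none higher with 3 lower under upper quartile scaling. Apart from RpS10a these were small: RpS15Ab had 138, 136 and 138 CPM in the mutant, against 108, 119 and 113 CPM in OreR (log2 fold change 0.27 ± 0.07 SE, edgeR adjusted p = 0.016), mRpL18 had 34.2, 29.7 and 29.7 CPM in the mutant, against 22.8, 24.2 and 23.6 CPM in OreR (log2 fold change 0.41 ± 0.10 SE, edgeR adjusted p = 0.015) and mRpL46 had 26.6, 27.98 and 25.9 CPM in the mutant, against 31.6, 34.1 and 33.1 CPM in OreR (log2 fold change -0.30 ± 0.09 SE, edgeR adjusted p = 0.031). RpS15Ab and mRpL18 were not called with upper quartile scaling (edgeR adjusted p = 0.2 and 0.086), RpS15Ab also not without mutant replicate 2 (0.059) or 3 (0.051), and neither without OreR replicate 1 (0.063 and 0.052). mRpL46 was called without OreR replicate 2 alone among the runs that left out a library (up to 0.11 in the others), and not with the filter on low counts removed (0.087).

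Spliceosomal RNAs are transcribed from junction-free genes themselves, and all 5 called snRNA genes were higher. Of 31 snRNA genes 11 were tested, so that 45.5% were called, near the 46.9% of all tested genes, of which 26.4% were higher. The U12 RNA, of the minor spliceosome, had 12.8, 14.6 and 15.97 CPM in the mutant, against 5.09, 2.64 and 5.56 CPM in OreR (log2 fold change 1.71 ± 0.27 SE, edgeR adjusted p = 0.0021), and U11, its partner, had 1.79, 2.03 and 2.08 CPM in the mutant, against 1.26, 0.719 and 1.17 CPM in OreR (log2 fold change 0.91 ± 0.25 SE, edgeR adjusted p = 0.021; 0.07 without mutant replicate 2 and 0.055 without mutant replicate 3). The others, beside snRNA:U2:34ABa, were snRNA:U2:34ABc at 0.909, 0.725 and 0.952 CPM in the mutant, against 0.411, 0.139 and 0.217 CPM in OreR (log2 fold change 1.75 ± 0.38 SE, edgeR adjusted p = 0.0081) and snRNA:U1:95Cc at 0.503, 0.551 and 0.463 CPM in the mutant, against 0.180, 0.255 and 0.136 CPM in OreR (log2 fold change 1.38 ± 0.32 SE, edgeR adjusted p = 0.01). Every mutant library was above every OreR library for these genes. The snRNAs U11, U12, U1:95Cc and U2:34ABc lie inside other genes, and the copies of U1 and of U2 share sequence. Whether reads of the surrounding transcripts entered these counts was not tested.

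Of 234 snoRNA genes, which guide modification of other RNAs and mostly lie in introns, 58 were tested, 7 were higher and 6 lower. The calls were 22.4% of those tested, against 46.9% of all tested genes. snoRNA:SC35-a had 0.263, 0.232 and 0.257 CPM in the mutant, against 0.900, 0.881 and 0.923 CPM in OreR (log2 fold change -1.83 ± 0.23 SE, edgeR adjusted p = 0.0009), and snoRNA:CG32479-a averaged 0.0348 ± 0.0146 CPM in the mutant and 0.286 ± 0.0198 CPM in OreR (SD, n = 3 each) (log2 fold change -2.93 ± 0.44 SE, edgeR adjusted p = 0.0017). Both were lower in all mutant libraries and both lie inside another gene. Together the snRNA and snoRNA genes gave 12 higher and 6 lower, and 9 and 3 without mutant replicate 2. Of 192 microRNA genes 112 had no count, 8 were tested and none was called with edgeR (none at an unadjusted p below 0.05) or with DESeq2. The smallest edgeR adjusted p was 0.1, for mir-1001 at 0.431, 0.406 and 0.360 CPM in the mutant, against 0.797, 0.742 and 0.407 CPM in OreR, and it was called lower without OreR replicate 3 (0.036). mir-6-3 was called higher without OreR replicate 1 (edgeR adjusted p = 0.024) and without a filter on low counts (0.042), and mir-10 without OreR replicate 2 (0.044). mir-375 was at 0.239, 0 and 0.206 CPM in the mutant, against 0.257, 0.371 and 0.298 CPM in OreR (log2 fold change -0.99 ± 0.67 SE, edgeR adjusted p = 0.25), mir-4954 at -0.35 ± 0.24 and mir-998 at 0.37 ± 0.25, as log2 fold changes; from which transcripts these counts came was not tested.

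A list of long noncoding and antisense RNAs, drawn up by gene symbol, counted 218 members, 77 without a count, 40 tested, 9 higher and 6 lower. The calls were 37.5% of those tested, against 46.9% of all tested genes. The list also holds genes that the later annotation calls pseudogenes, such as CR10102 and CR41501. Of the members annotated as ncRNA, microRNAs included, 38 were tested, 5 were higher and 3 lower. Beside lncRNA:CR40469, CR10102 and lncRNA:CR43641, lncRNA:CR43264 had 22.3, 20.1 and 16.4 CPM in the mutant, against 9.16, 7.61 and 7.87 CPM in OreR (log2 fold change 1.25 ± 0.15 SE, edgeR adjusted p = 0.00084). CR41501, which the later annotation calls a pseudogene, had 0.144, 0.174 and 0.103 CPM in the mutant, against 1.29, 0.788 and 0.977 CPM in OreR (log2 fold change -2.84 ± 0.34 SE, edgeR adjusted p = 0.0008). Neither overlapped between genotypes.

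The replication-dependent histone genes, whose mRNAs end in a stem-loop in place of a poly(A) tail, were almost invisible in these libraries. Of 91 histone genes 84 had no count in any library, and all 91 together had 7, 9 and 18 counts in the mutant and 31, 22 and 26 counts in OreR. The single one tested, His1:CG33801, had 0.0957, 0.0580 and 0.283 CPM in the mutant, against 0.694, 0.371 and 0.543 CPM in OreR (log2 fold change -1.84 ± 0.53 SE, edgeR adjusted p = 0.025; 0.084 and 0.081 without mutant replicates 1 and 2, and 0.071 and 0.055 without OreR replicates 1 and 3). Summed over the 91 genes the level was 0.168, 0.261 and 0.463 CPM in the mutant, against 0.797, 0.510 and 0.705 CPM in OreR, which did not overlap. These sums rest on few counts and got no test, and the genes are near-identical repeats. The reason for the low counts was not tested.

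The factors that process histone pre-mRNA were well measured, but their list was not matched to other genes for level. At 5 log2 CPM or more, 38.2% of genes with junctions and 46.3% of junction-free genes rose. Of 12 histone pre-mRNA processing genes, with or without junctions, 8 were higher (66.7%, against 26.4% of all tested genes). None of the 12 was lower (none at an unadjusted p below 0.05 or with DESeq2). Their median was 0.59 (0.43 with upper quartile scaling, with the same counts). 2 of them are junction-free: Lsm11, of the U7 particle, had 13.3, 13.6 and 14.5 CPM in the mutant, against 6.81, 3.76 and 6.68 CPM in OreR (log2 fold change 1.26 ± 0.23 SE, edgeR adjusted p = 0.0038), and Lsm10, of the same particle, had 6.92, 8.78 and 7.87 CPM in the mutant, against 3.99, 2.39 and 4.53 CPM in OreR (log2 fold change 1.11 ± 0.25 SE, edgeR adjusted p = 0.0095). Both were higher in every mutant library. Of the genes with junctions, FLASH, which recruits the cleavage complex, averaged 77.8 ± 9.02 CPM in the mutant and 34.6 ± 5.73 CPM in OreR (SD, n = 3 each) (log2 fold change 1.17 ± 0.15 SE, edgeR adjusted p = 0.00088), and CstF64, Cdk9 and Ars2 had log2 fold changes of 0.86 ± 0.10, 0.68 ± 0.09 and 0.57 ± 0.10.

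Export of mRNA to the cytoplasm, which intronless transcripts also need, gave 13 higher and no lower of 16 genes (none lower at an unadjusted p below 0.05 or with DESeq2), at a median of 0.64, and 11 higher with upper quartile scaling or without mutant replicate 2 or 3. Junction-free among these were Gle1, which acts at the nuclear pore, at 119, 147 and 159 CPM in the mutant, against 64.3, 43.5 and 65.2 CPM in OreR (log2 fold change 1.30 ± 0.18 SE, edgeR adjusted p = 0.0011), and PCID2, of the TREX-2 complex, at 46.2, 50.9 and 51.5 CPM in the mutant, against 31.5, 22.8 and 30.6 CPM in OreR (log2 fold change 0.81 ± 0.14 SE, edgeR adjusted p = 0.0028). The genotypes were well apart in both. Nxt1, the partner of the main export receptor, averaged 95.3 ± 1.94 CPM in the mutant and 46.2 ± 3.46 CPM in OreR (SD, n = 3 each) (log2 fold change 1.05 ± 0.09 SE, edgeR adjusted p = 0.00031), and thoc7 and Hel25E, of the TREX complex, had log2 fold changes of 0.76 ± 0.10 and 0.77 ± 0.10. Both lists were chosen with earlier results of these data known, and neither was matched to other genes for level. Over all tested genes 46.9% changed, 26.4% higher and 20.6% lower. At 5 log2 CPM or more, 38.2% of genes with junctions and 46.3% of junction-free genes were higher.

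In several lists of tissue-limited genes few members had enough counts to be tested. Of 33 odorant, gustatory and odorant-binding members 5 were tested and Obp28a was called lower, at 2.49, 1.77 and 1.03 CPM in the mutant, against 5.55, 5.19 and 3.07 CPM in OreR (log2 fold change -1.38 ± 0.36 SE, edgeR adjusted p = 0.017; 0.06 without mutant replicate 2 and 0.051 without OreR replicate 1). Of 18 cuticle and Tweedle members 5 were tested and Cpr72Ec was called higher, at 0.503, 0.725 and 0.514 CPM in the mutant, against 0.154, 0.0927 and 0.163 CPM in OreR (log2 fold change 2.07 ± 0.35 SE, edgeR adjusted p = 0.0025). Twdlbeta spread within OreR, at 13.6, 10.6 and 3.73 CPM in the mutant, against 48.6, 11.1 and 10.1 CPM in OreR (log2 fold change -1.32 ± 0.70 SE, edgeR adjusted p = 0.15), with OreR replicate 1 far above the rest, and TwdlY did the same at 27.5, 25.5 and 10.3 CPM in the mutant, against 82.6, 23.7 and 17.1 CPM in OreR. Of 16 testis-biased members 5 had no count and 1 was tested: fzo, a mitochondrial fusion gene of sperm, had 0.503, 0.406 and 0.360 CPM in the mutant, against 0.103, 0.139 and 0.244 CPM in OreR (log2 fold change 1.38 ± 0.38 SE, edgeR adjusted p = 0.021), with the call lost with DESeq2 (0.066) and without mutant replicate 1 (0.061) or 2 (0.058) or OreR replicate 1 (0.063) or 2 (0.069). Of 31 Su(Ste) repeats 18 had no count and 1 was tested, without a call (edgeR adjusted p over 0.05). Of 4 neuropeptide members 2 were tested and 1 was lower, and of 13 immune peptide members 2 were tested and 1 was lower. The 6 vitelline membrane members had none tested.

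Genes without junctions can still have several exonic bins, where transcripts start or end at different places. Of the members, 2980 had 1 bin and 293 had 2 to 5. Of these 293, 68 could be tested for bin use and 4 changed (5.88%), against 6.04% of all 8510 genes tested (diffSpliceDGE of edgeR, Simes p per gene, Benjamini-Hochberg adjusted p below 0.05). Shares below are counts of a bin as a percent of the counts of its gene, and a read pair can enter more than 1 bin.

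Mo25, a scaffold of the LKB1 kinase complex, used its bin E001 less. The bin held 2.34%, 2.66% and 2.35% of the counts in the mutant, against 9.004%, 8.87% and 8.83% in OreR (edgeR adjusted p = 9.1e-08). Rac1, a GTPase that acts on the actin cytoskeleton, used E001 more, at 6.30%, 6.42% and 6.04% in the mutant and 1.19%, 1.12% and 1.72% in OreR (edgeR adjusted p = 4.1e-07). The libraries of the genotypes stood clearly apart in both genes. As a whole gene, Mo25 was lower by a small amount (log2 fold change -0.29 ± 0.07 SE, edgeR adjusted p = 0.014; not called without mutant replicate 2 (0.072) or 3 (0.055) or OreR replicate 3 (0.072)), and Rac1 was higher (log2 fold change 0.49 ± 0.08 SE, edgeR adjusted p = 0.0024).

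CG7564 changed in both use and level. Its bin E002 held 35.9%, 34.2% and 31.1% of the counts in the mutant, against 10.99%, 12.3% and 9.53% in OreR, and E001 held 72.4 ± 2.59% in the mutant and 93.4 ± 1.20% in OreR (SD, n = 3 each; edgeR adjusted p = 4.5e-07). The gene as a whole had 155, 147 and 164 CPM in the mutant, against 73.04, 68.2 and 72.1 CPM in OreR (log2 fold change 1.13 ± 0.08 SE, edgeR adjusted p = 0.00014). Polr2E, a subunit that the RNA polymerases share, had 2.74%, 3.56% and 3.20% in E001 in the mutant and 5.11%, 4.73% and 6.62% in OreR (edgeR adjusted p = 0.029). Its libraries did not overlap, but the call ended with bins alone (0.071) and on leaving out any library other than OreR replicate 2 (0.067 to 0.37). The nuclear exonuclease gene Rat1, next in order, was not called (0.17).

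**Figure D5:**
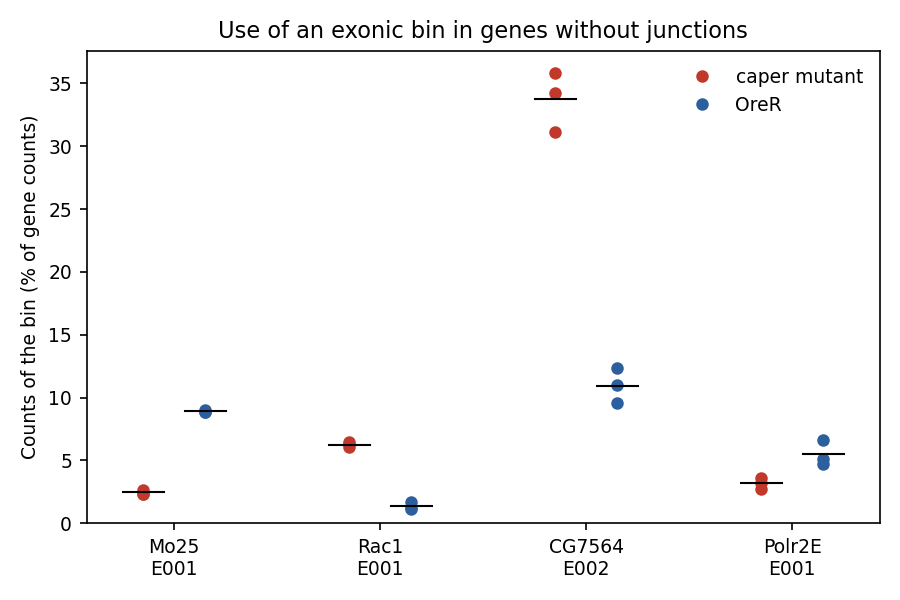
Counts of 1 exonic bin as a percent of the counts of its gene (vertical axis, from 0), in each caper mutant library (red) and OreR library (blue), with bars at the mean of 3, for the 4 junction-free genes with called bin use. Mo25 E001 lies near 2.45% in the mutant and 8.90% in OreR, Rac1 E001 near 6.25% and 1.35%, CG7564 E002 near 33.7% and 10.9%, and Polr2E E001 near 3.16% and 5.49%.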

How the data were processed

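RNA of whole embryos was sequenced as read pairs from stranded Illumina libraries, per the labels' protocols. GSNAP, SAMtools and the builds BDGP5 and mm10 are listed without roles, per the submitters' processing notes. The sources used here do not give the counting tool or its strand setting. The authors deposited a JunctionSeq-style table of counts of 73704 exonic bins, 54271 annotated and 418 unannotated junctions, each beside the count of the rest of its gene, per the file headers. The deposited values divided by a size factor, a normalised signal, were used as a check only.

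A gene count was the smallest sum of feature and rest over the entries of a gene; sums differed in 48 genes, none a member. Names, lengths and overlaps came from Ensembl 115 (BDGP6) by identifier, and no coordinates are printed because the builds differ. Promoter and protein sequences were not analysed here. The test, on the counts of the whole table, was the quasi-likelihood test of edgeR 4.0.16 (R 4.3.3; filterByExpr, TMM scaling, genotype as the model), with Benjamini-Hochberg adjustment at 0.05; SE is the fold change over the square root of F, CPM use TMM-adjusted library sizes, and log2 CPM a prior count of 2. Bin use was tested with diffSpliceDGE on bins and junctions. Scripts were tested on simulated data. Nothing shows separate collections for the biological replicates beyond their name, so p-values measure the spread between these libraries.

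Members and lists were chosen with earlier results of these data known. The genes named were, among called members of at least 1 log2 CPM without overlap, the 10 largest increases and 10 largest decreases; the 10 most abundant; the 4 smallest p in each list with at least 3 tested genes; and the 5 smallest p for bin use. Other called Gst, Nepl, snRNA, vesicle and replication genes, the protease list, Lsm10, Lsm11, PCID2, GstE11, fzo, His1:CG33801, twe, genes called under an alternative and genes near 0 in 1 genotype were added after their values were seen. Alternatives were DESeq2 1.42.0, RLE and upper quartile scaling, TMM over genes with junctions, no filter on low counts, the largest sum per gene, a replicate block, leaving out each library, and other definitions of the members.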

Additional observations from a re-analysis of the deposited data

How the results depend on the processing

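Alternative values of the named genes numbered 1677 over 129 tested genes: 1591 kept direction and side of the threshold, 65 lost the call (56 of them on leaving out a library), 21 gained one and 0 reversed; of 95 called genes, 71 kept the call throughout. The count of changed junction-free genes was 425, and 208 over members clear of other genes, a set of fewer genes; leaving out a library gave 306 to 402. Those higher numbered 275, and 127 over the clear members (224 to 284 without a library). Those lower numbered 150, and 260 with upper quartile scaling and 81 over the clear members (82 to 127 without a library, fewest without mutant replicate 2; the cause was not tested). The median log2 fold change of -0.01 was 0.020 with DESeq2, 0.012 with RLE scaling, 0.048 without a filter, -0.17 with upper quartile scaling and -0.052 over the clear members (-0.030 to 0.034 without a library); the sign is not settled and the cause was not tested. The share of counts in junction-free genes differed by -0.10 percentage points, and by -0.18 to -0.03 without a library. Bin use was called in 4 genes, and in 3 to 4 under the alternatives. The titles number the replicates alike, but same-numbered libraries deviated together with correlations of 0.09, -0.01 and 0.60, so the numbers were not taken as pairs, and not every library correlated best with its own number. With the replicate block 456 genes changed (278 higher, 178 lower), the median was -0.00 and bin use was called in 3, without Polr2E (0.054); among the named genes mRpL46 lost its call (0.071), and E(spl)m4-BFM (0.042), halo (0.041), Hsp70Bc (0.023) and Twdlbeta (0.019) gained one. Depth limited 1211 members with counts that were too few to test, and histone, tRNA and microRNA genes were mostly among the silent or untested ones.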
